A study of Drosophila melanogaster with 4 samples.

Results

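The genes described here are the small and structural RNA genes in a deposited list of genes with Prospero binding peaks in neural precursors and neurons of the Drosophila larval brain. They are microRNA, transfer RNA (tRNA), small nucleolar RNA (snoRNA), small nuclear RNA (snRNA) and 5S ribosomal RNA (5S rRNA) genes. They were chosen by their names among the gene entries of the list, so each of them was selected on the readout itself, being listed. They numbered 55 of 1512 gene entries. Being listed is therefore a description of these genes, and no test is attached to it.

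The study profiled chromatin binding by targeted DamID, which joins Dam, a bacterial enzyme that methylates adenine in GATC sites, to a protein of interest so that methylation marks where this protein sits. There were 4 groups, labelled Dam-Pros-FL (full-length Prospero), Dam-Pros-ΔN7 (a Prospero form given only by that name), Dam-HP1a (heterochromatin protein 1a) and Dam alone, each stated to have 3 biological replicates. All 4 were expressed under GMR71C09-GAL4 with the temperature-sensitive repressor Gal80ts, in brains dissected from larvae of instar 3. DNA was taken from whole brains, so the signal comes from whichever cells that driver line switches on, and no marker of those cells can be checked in a list of names. The list gives names and identifiers only. It holds no peak position, height, replicate value or depth, and the Prospero form behind it (full-length or ΔN7) is not stated. Where a peak sat relative to a small RNA gene could thus not be measured, and neither could the number of peaks behind neighbouring names.

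Prospero is a homeodomain transcription factor that enters the nucleus of newly born ganglion mother cells and neurons, where it represses genes of neural stem cell self-renewal and promotes differentiation. MicroRNAs are short RNAs, cut from hairpin precursors made by RNA polymerase II, that guide Argonaute proteins to messenger RNAs and lower their output. tRNAs and 5S rRNA are made by RNA polymerase III and serve translation, snRNAs form the core of the spliceosome, and snoRNAs guide chemical modification of ribosomal RNA, mostly from within introns of host genes.

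By class, the entries comprised 21 tRNA, 19 microRNA, 6 snoRNA, 6 snRNA and 3 5S rRNA genes. Of the 55, 53 matched a gene of the RefSeq annotation of the Release 6 plus ISO1 MT assembly. For 24 of the 55 the gene name in the list differed from the symbol beside it, as with tRNA:CR30232, now tRNA:Ala-TGC-1-1. The unmatched pair was ban and snRNA:U3:22A. The entry ban (FBgn0082487) carries a symbol with the prefix of another fly species, and ban, as an older name, belongs to 3 annotated genes including mir-ban, the bantam microRNA, which promotes growth and represses the cell death gene hid. The entry snRNA:U3:22A (FBgn0003926) names U3, which despite its snRNA name acts as a snoRNA in ribosomal RNA processing. let-7 was not among the entries analysed here.

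Counted gene by gene, the shares listed ran from 2.37% to 15.6% over the 5 classes. Of 931 annotated genes in these classes, 53 were listed (5.69%, exact 95% interval 4.29 to 7.38). The background was 8.45% for all annotated genes on the chromosome arms (1504 of 17807) and 7.76% for protein-coding genes (1082 of 13946). Among long noncoding RNA (lncRNA) genes it was 16.8% (335 of 1995). The shares of microRNA and tRNA genes lay near the protein-coding share, at 6.92% for microRNA genes (18 of 260, interval 4.15 to 10.7) and 7.24% for tRNA genes (21 of 290, interval 4.54 to 10.9). snoRNA genes stood at 2.37% (6 of 253, interval 0.875 to 5.09) and 5S rRNA genes at 3.12% (3 of 96, interval 0.649 to 8.86). snRNA genes had the highest share, 15.6% (5 of 32), with an interval of 5.28 to 32.8 that includes the background. It moved to 31.2% without arm 2L, 9.09% without 3R and 10% without X. The intervals cover counting error only and treat genes as independent, which clustered genes are not. Counted as loci, joining genes of 1 class within 10 kb, the share over all 5 classes was 7.87%. A locus counts as listed when any of its genes is. Protein-coding genes were not joined into loci, so their 7.76% is not a like measure. Whether the lower share by gene holds by locus was not tested. snoRNA loci stood at 3.26% (3 of 92, interval 0.678 to 9.23), with 4 of the 6 listed snoRNA genes in 1 locus.

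**Figure D1:**
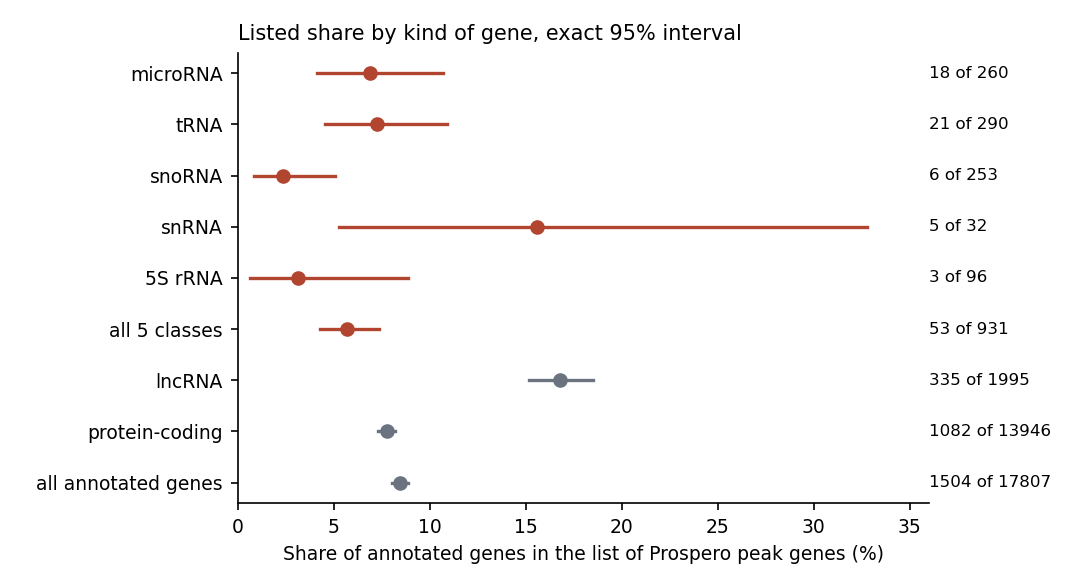
Share of annotated genes that are in the list of Prospero peak genes (x axis, percent) for the 5 small RNA classes and their total (red) and for lncRNA, protein-coding and all annotated genes (grey); points are shares, lines exact 95% Clopper-Pearson intervals, and the counts stand at the right. The intervals of microRNA, tRNA, snRNA and 5S rRNA genes include the 8.45% of all genes, and that of snoRNA genes ends at 5.09%. Of the 6 listed snoRNA genes, 4 lie at 1 locus, so the interval, which treats genes as independent, is too narrow.

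The listed genes are short. Median length was 95.5 bp for the listed microRNA genes (63 to 129), 72 bp for the tRNA genes (71 to 125), 154 bp for the snoRNA genes (96 to 171), 164 bp for the snRNA genes (110 to 192) and 135 bp for the 5S rRNA genes, against 6486 bp for the listed protein-coding genes. By chromosome arm, 18 members lay on 3R, 13 on 2R, 8 on 2L, 7 on 3L, 7 on X and 0 on the 4th chromosome. The share of small RNA genes listed was 9.47% on 3R (18 of 190), where 8.57% of all genes were listed, and 3.81% on 2R (13 of 341), where 8.41% of all genes were listed. On 3L it was 5.34% (7 of 131), against 10.2% of all genes. On 2L it was 5.26% (8 of 152), against 7.21%, and on X 6.14% (7 of 114), against 7.91%. The 4th chromosome has only 3 annotated small RNA genes. Of the 18 listed microRNA genes 10 lay on 3R, 3 of them at 1 locus. Of the 6 snoRNA genes 5 lay on 2R, 4 of them at 1 locus. On the arms other than 3R, 3.96% of microRNA genes were listed, against 6.92% on all arms. On the arms other than 2R, 0.621% of snoRNA genes were listed, against 2.37% on all arms.

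The 18 placed microRNA genes fell into 14 loci, joining microRNA genes within 10 kb of each other, of 198 such loci in the annotation (7.07%). Only 1 locus with several genes was listed in full. It holds mir-13b-1, mir-13a and mir-2c (FBgn0262367, FBgn0262429 and FBgn0262397) within 438 bp on 3R, all inside lncRNA:CR45911, which was also listed. These belong to the K-box microRNA family, whose fly members repress proapoptotic genes. The nearest listed protein-coding gene was Atx2, which encodes the RNA-binding protein Ataxin-2, at 130 bp from mir-13b-1, 264 bp from mir-13a and 466 bp from mir-2c. The genes at other places that share a number with them, mir-13b-2, mir-2a-1, mir-2a-2, mir-2b-1 and mir-2b-2, were not listed. Family members with other numbers were not grouped here.

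At 4 further loci only some of the clustered microRNA genes were listed. On X, the listed mir-972, mir-973 and mir-974 (FBgn0262181, FBgn0262201 and FBgn0262216) are 3 of 12 microRNA genes spread over 10780 bp, a cluster described in flies as testis-enriched. These 3 are at the end of the cluster that faces the listed gene CG32532, 3669, 4045 and 4195 bp away from it. The unlisted mir-9369 lies between mir-972 and mir-973, 3835 bp from CG32532. The other unlisted genes, mir-2499, mir-4966-1, mir-4966-2 and mir-975 to mir-979, lie farther off. mir-978 and mir-979 overlap Grip84, which was not listed, nor was car beyond it. mir-279 (FBgn0262448), which keeps carbon dioxide sensing neurons from forming in the maxillary palps by repressing nerfin-1, was listed, whereas its neighbour mir-996 was not. Both lie inside the listed lncRNA:CR31044, within 1696 bp of each other.

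mir-92a (FBgn0262411) was listed without mir-92b, with which it shares a span of 4992 bp inside the listed gene jigr1, a MADF-domain gene active in neuroblasts. mir-287 (FBgn0262400) was listed without mir-124, the neuronal microRNA, at the other end of a span of 8333 bp. Its nearest listed gene was lncRNA:CR45358, 449 bp away.

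The other 9 listed microRNA genes stood alone at 10 kb. mir-10 (FBgn0262424), the microRNA of the Antennapedia Hox complex, overlapped the listed lncRNA:CR42651. mir-1000 (FBgn0262319), which represses the vesicular glutamate transporter VGlut in neurons, lay inside msi, which encodes the RNA-binding protein Musashi of asymmetric cell division, and lncRNA:CR45910, both listed. mir-14 (FBgn0262447), a suppressor of cell death that also represses the ecdysone receptor gene EcR, overlapped lncRNA:CR43651. mir-4944 (FBgn0263547) lay in hth, which encodes the Hox cofactor Homothorax, mir-929 (FBgn0262214) in cpx, which encodes the synaptic protein Complexin, and mir-967 (FBgn0262203) in bun, a TSC-22 family gene. mir-252 (FBgn0262323) overlapped the antisense RNA asRNA:CR17025. Of the last pair, mir-2496 (FBgn0262297) was 12 bp from lncRNA:CR45478, and mir-957 (FBgn0262182) had its nearest listed gene, lncRNA:CR45429, at 7128 bp.

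**Figure D2:**
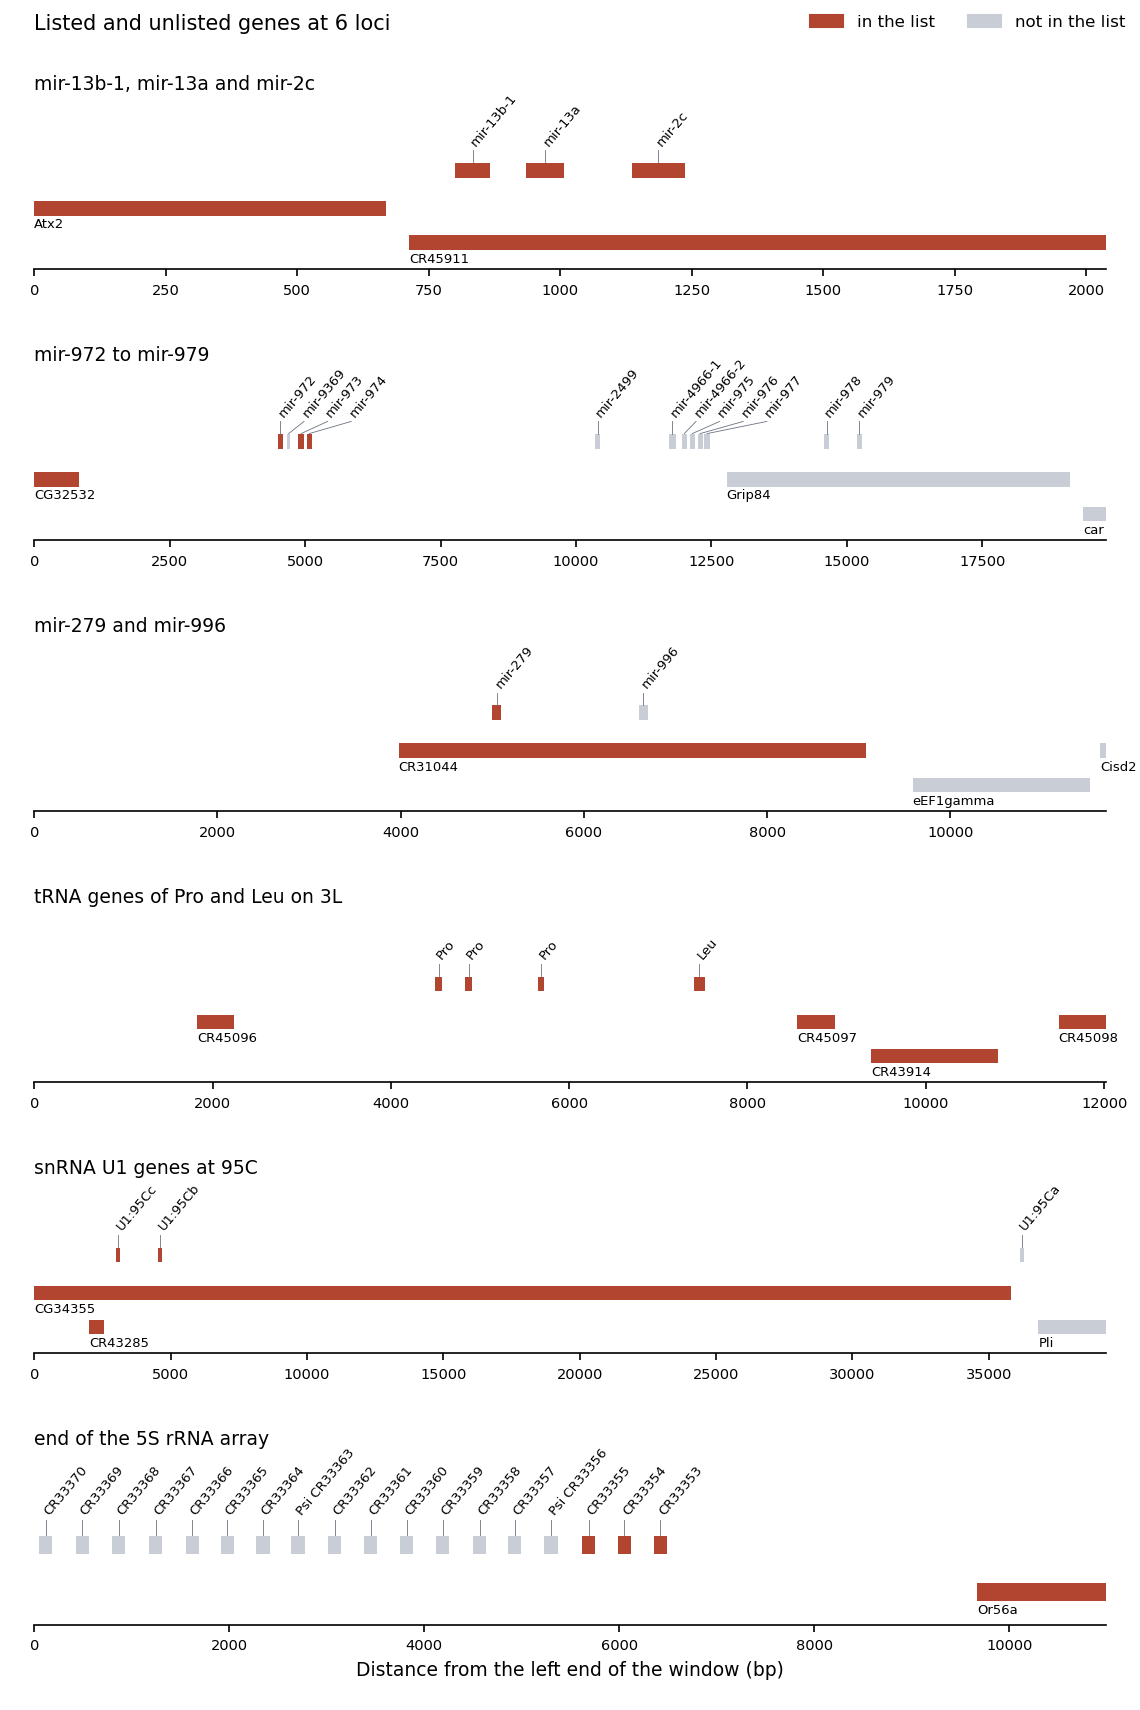
Maps of 6 loci, in bp from the left end of each window, with listed genes in red and genes not in the list in grey; small RNA genes (and 5S pseudogenes, Psi) form the upper row, other genes the lower rows, lncRNA names are given without their prefix, tRNA genes by amino acid, and genes that run past a window end at its edge. The listed genes mir-972, mir-973 and mir-974 lie toward CG32532 with the unlisted mir-9369 among them, all 4 tRNA genes of the Pro and Leu locus are listed, and the 3 listed 5S rRNA genes are the last 3 copies before Or56a.

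The 21 tRNA genes covered 12 of the 21 amino acids with nuclear tRNA genes, selenocysteine included, and 14 of 45 anticodon kinds. Glycine and proline tRNA genes together made up 8 of the 21. There were 4 of 20 glycine genes, 4 of 17 proline genes (23.5%, interval 6.81 to 49.9), 3 of 26 arginine genes and 2 of 17 alanine genes. Glutamine (of 12), glutamate (of 19), leucine (of 22), lysine (of 19), methionine (of 12), phenylalanine (of 8), threonine (of 17) and tyrosine (of 10) had 1 each. The methionine gene, tRNA:iMet-CAT-1-3 (FBgn0052482), encodes the initiator tRNA that starts translation. No gene was listed for serine (20 annotated), valine (15), aspartate (14), isoleucine (11), asparagine (10), tryptophan (8), cysteine (7), histidine (5) or selenocysteine (1). By anticodon, 4 of 7 tRNA:Pro-AGG and 3 of 14 tRNA:Gly-GCC genes were listed. Both of the 2 tRNA:Ala-TGC genes were listed, the only anticodon kind with every gene in the list.

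**Figure D3:**
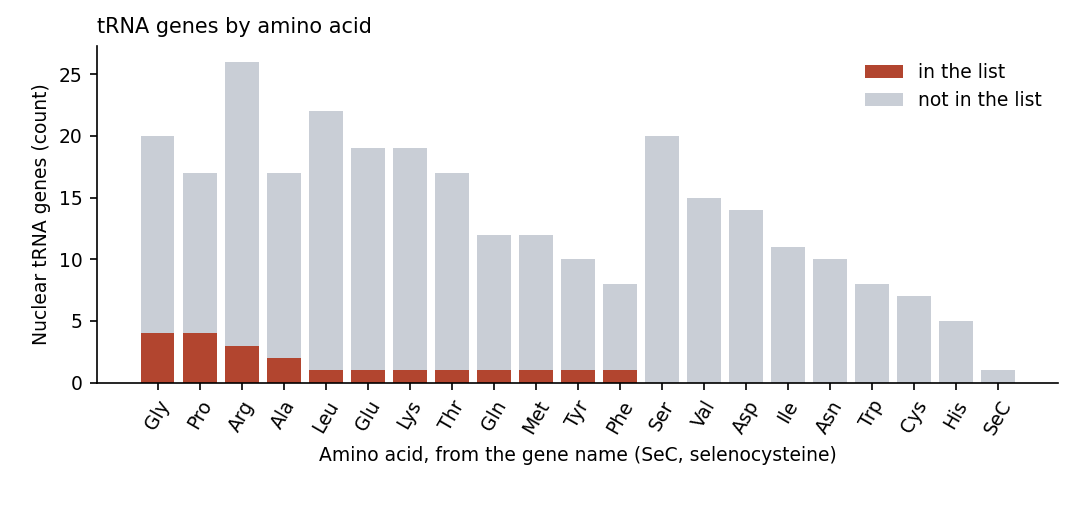
Number of nuclear tRNA genes per amino acid (y axis), split into genes in the list (red) and genes not in the list (grey), with amino acids ordered by the listed number. Glycine and proline have 4 listed genes each, and 9 amino acids, from serine with 20 annotated genes to selenocysteine with 1, have none.

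Several of these genes were neighbouring copies. The 21 tRNA genes came from 14 loci of 133 (10.5%), and 4 loci with several genes were listed in full. tRNA:Gly-GCC-1-4, tRNA:Gly-GCC-1-5 and tRNA:Gly-GCC-1-6 (FBgn0011862, FBgn0011863 and FBgn0011864) span 601 bp on 2L, so 3 of the 4 glycine genes are 1 locus. tRNA:Pro-AGG-1-5, tRNA:Pro-AGG-1-6, tRNA:Pro-AGG-1-7 and tRNA:Leu-CAA-2-2 (FBgn0052129, FBgn0052128, FBgn0052126 and FBgn0052127) span 3020 bp on 3L between the listed lncRNA:CR45096 and lncRNA:CR45097, which holds 3 of the 4 proline genes. tRNA:Ala-TGC-1-1 and tRNA:Ala-TGC-2-1 (FBgn0050232 and FBgn0011879) span 513 bp on 2R, at 2692 and 3133 bp from lncRNA:CR44344. tRNA:Arg-TCG-2-3 and tRNA:Arg-TCG-2-4 (FBgn0011966 and FBgn0053551) span 1126 bp inside pyd, which encodes the fly ZO-1 junction protein. Counted as loci, glycine and proline therefore had 2 each, as did arginine.

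At 4 other tRNA loci some copies were listed and others were not. tRNA:Thr-TGT-2-2 (FBgn0050506) was 1 of 4 genes, the unlisted ones being tRNA:Thr-TGT-2-1, tRNA:Thr-TGT-2-3 and tRNA:Thr-TGT-2-4, and sprt was the nearest listed gene at 2337 bp. The unlisted tRNA:Thr-TGT-2-1 lies inside sprt. tRNA:Tyr-GTA-1-8 (FBgn0012024) was 1 of 3 genes within 1059 bp, with tRNA:Tyr-GTA-1-6 and tRNA:Tyr-GTA-1-7 unlisted although all 3 lie inside the listed genes p, an eye pigmentation gene, and CG8036. tRNA:Gly-TCC-1-2 (FBgn0051491) lay 38 bp from the listed CG31248 without tRNA:Gly-TCC-1-1, which lies inside CG31248 and within the same 1155 bp. tRNA:Glu-CTC-2-3 (FBgn0052460) was listed without tRNA:Leu-CAG-1-8 and lay 2314 bp from asRNA:CR43426.

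Of the 6 single tRNA genes, 4 overlapped a listed gene. tRNA:Arg-TCT-2-1 (FBgn0051942) overlapped erm, which encodes the zinc finger protein Earmuff that restricts intermediate neural progenitors. tRNA:Phe-GAA-1-3 (FBgn0051895) lay in Sema1a, which encodes a transmembrane semaphorin of axon guidance, while tRNA:Asp-GTC-1-6 inside the same gene was not listed. tRNA:Gln-TTG-2-1 (FBgn0052493) overlapped CG12535 and lncRNA:CR44999, and tRNA:iMet-CAT-1-3 overlapped hng3. tRNA:Pro-AGG-1-1 (FBgn0028882) was 1047 bp from lncRNA:CR45303. tRNA:Lys-CTT-1-11 (FBgn0011897) was the most isolated listed tRNA gene, with lncRNA:CR45231 nearest at 12854 bp.

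All 6 listed snoRNA genes lay inside listed genes. snoRNA:lola-a, snoRNA:lola-b, snoRNA:lola-c and snoRNA:lola-d (FBgn0263466, FBgn0263481, FBgn0263482 and FBgn0263483) span 776 bp within lola, which encodes BTB zinc finger proteins that maintain neuronal identity and guide axons. snoRNA:660 (FBgn0065059) lay in Act57B, a muscle actin gene, and snoRNA:Or-aca3 (FBgn0082923), an orphan snoRNA, in RpL4, a ribosomal protein gene. Of the 247 unlisted snoRNA genes, 9 overlapped a listed gene (3.64%, interval 1.68 to 6.8). In the other 4 classes taken singly this share of unlisted genes ran from 0% for 5S rRNA genes to 25.9% for snRNA genes.

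Among snRNA genes, both spliceosomes were represented. Of the U1 genes, which pair with the 5′ splice site, 2 of 5 were listed. These were snRNA:U1:95Cb and snRNA:U1:95Cc (FBgn0004186 and FBgn0004187), 1700 bp from end to end inside the listed gene CG34355, whereas snRNA:U1:95Ca just beyond that gene was not listed, nor were snRNA:U1:21D and snRNA:U1:82Eb. The only gene for U4atac, an RNA of the minor spliceosome, was listed as snRNA:U4atac:82E (FBgn0263018) and lay in cno, which encodes the junction protein Canoe. snRNA:U2:14B and snRNA:U5:14B (FBgn0003920 and FBgn0003933), 1 of 6 U2 and 1 of 7 U5 genes, lie together within 856 bp on X. Their nearest listed gene, hang, was 167967 and 168713 bp away, the farthest of any member. No U4, U6, U6atac, U7, U11, U12, LU or 7SK gene was listed (0 of 3 for U4, 0 of 3 for U6, 0 of 2 for 7SK and 0 of 1 for each of the others).

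The 3 listed 5S rRNA genes, 5SrRNA:CR33353, 5SrRNA:CR33354 and 5SrRNA:CR33355 (FBgn0053353, FBgn0053354 and FBgn0053355), sit at 1 end of the 5S array. That array holds 100 annotated copies on 2R, 96 genes and 4 pseudogenes, over 36717 bp with no gap above 267 bp. The listed copies are the outermost 3, span 870 bp, and have no copy beyond them. The nearest listed gene of another kind, the odorant receptor gene Or56a, lay 3182, 3551 and 3917 bp from them on that side. None of the other 93 genes of the array was listed. Because 5S copies, like the copies of many tRNA genes, are nearly identical in sequence, reads from 1 copy may not be placed uniquely, and the effect on these entries was not tested.

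Listed small RNA genes lay close to other listed genes. For each gene, the distance was taken to the nearest listed gene that is no small RNA gene. Of the 53 placed members, 28 overlapped such a gene (52.8%, interval 38.6 to 66.7), against 86 of 878 unlisted small RNA genes (9.79%, interval 7.91 to 12). Within 5 kb the numbers were 46 of 53 members (86.8%, interval 74.7 to 94.5), against 192 of 878 unlisted small RNA genes (21.9%, interval 19.2 to 24.8). The median distance was 0 bp for members and 29442 bp for unlisted small RNA genes. Listed genes of other kinds also lay near one another, with 1071 of 1451 (73.8%) within 5 kb of another such gene, against 2281 of 15425 unlisted genes of other kinds (14.8%). The intervals treat genes as independent, but the 53 members form 35 loci, so the intervals are too narrow. Whether members and unlisted small RNA genes differ was not tested. Members and their listed neighbours also come from the same list, and a rule that names every gene near a peak would put both in it. Whether 1 peak or separate peaks lay behind such neighbours was not tested.

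**Figure D4:**
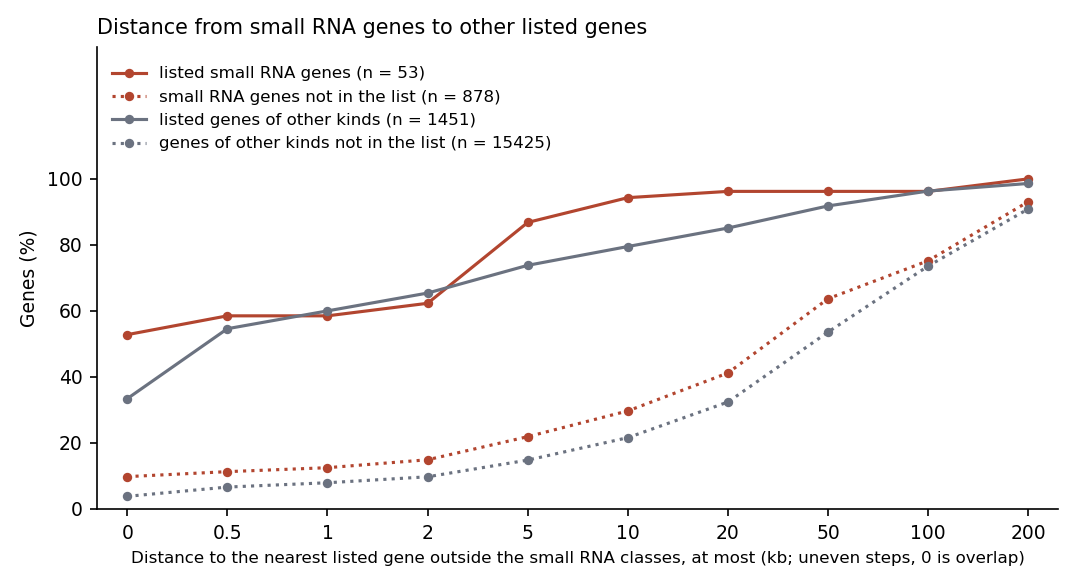
Cumulative share of genes (y axis, percent) with a listed gene outside the small RNA classes at or within a given distance (x axis, kb, unevenly spaced steps), for listed small RNA genes (solid red), small RNA genes not in the list (dotted red), listed genes of other kinds (solid grey) and genes of other kinds not in the list (dotted grey). At 5 kb the shares are 86.8%, 21.9%, 73.8% and 14.8% in that order, and the curves of the unlisted genes come near the others only at 200 kb.

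The pattern was seen in most classes. Within 5 kb of a listed gene of another kind lay 17 of 18 listed microRNA genes, against 69 of 242 unlisted ones (28.5%), and 17 of 21 listed tRNA genes, against 57 of 269 unlisted ones (21.2%). snRNA genes differed least, with 3 of 5 listed genes and 15 of 27 unlisted ones (55.6%). Taken the other way, the share of small RNA genes that were listed was 24.6% among those overlapping a listed gene (28 of 114, interval 17 to 33.5), 14.5% among those within 5 kb but not overlapping (18 of 124, interval 8.84 to 22), 2.86% from 5 to 20 kb (5 of 175) and 0.386% beyond 20 kb (2 of 518). The 2 in the last group were snRNA:U2:14B and snRNA:U5:14B. For tRNA genes the share was 17.5% for overlap (7 of 40) and 29.4% for up to 5 kb (10 of 34), and their intervals overlap. For microRNA genes it was 24.5% (12 of 49) and 13.5% (5 of 37).

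**Figure D5:**
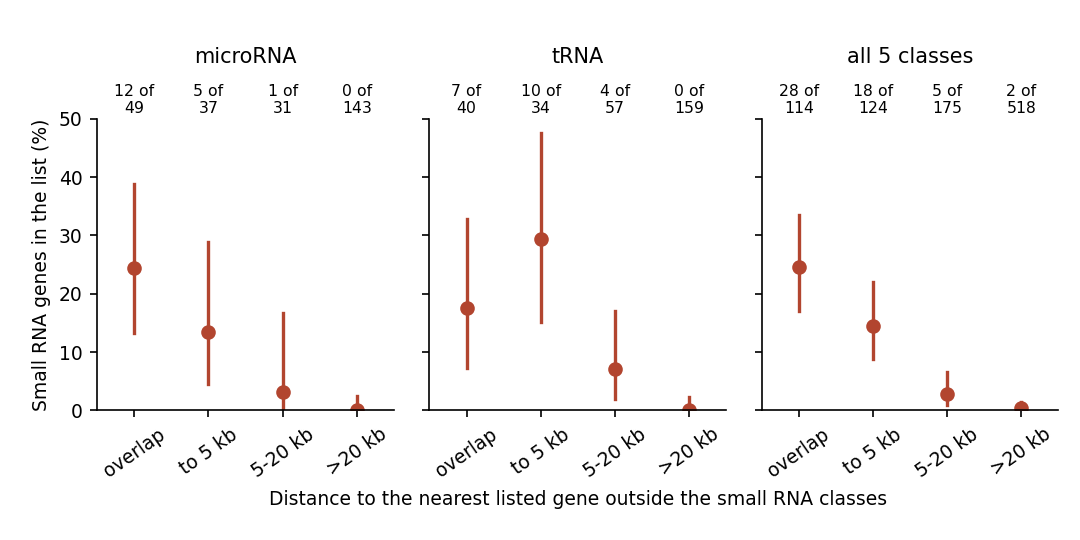
Share of annotated small RNA genes that are in the list (y axis, percent) by distance to the nearest listed gene outside the small RNA classes (x axis), for microRNA genes, tRNA genes and all 5 classes; points are shares, lines exact 95% intervals, and counts stand above each panel. In all 5 classes together the share is 24.6% for overlapping genes and 0.386% beyond 20 kb.

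Overlap with a listed gene did not by itself put a small RNA gene in the list. In all, 71 listed genes of other kinds overlapped small RNA genes. In 18 of them all the overlapping small RNA genes were listed, in 6 some were and in 47 none were. The 47 include lncRNA:CR43334, whose mir-ban was counted as unlisted because the entry ban was not placed. EcR, which encodes the ecdysone receptor, holds 13 tRNA genes and Ptp61F, a tyrosine phosphatase gene, holds 9, none of them listed. Of those 9, 3 also lie in the listed gene ru, which encodes a rhomboid protease of EGF signalling. The listed gene sick holds 5 unlisted snRNA genes, and egr, the fly TNF gene, holds 3 unlisted snoRNA genes. Unlisted microRNA genes inside listed genes included mir-9c, mir-306, mir-79 and mir-9b in grp (the Chk1 kinase gene), mir-2a-1, mir-2a-2 and mir-2b-2 in spi (an EGF ligand gene), mir-11 and mir-998 in E2f1, and mir-7 in HnRNP-K. These hosts were singled out after their counts were seen. Protein-coding hosts with a listed small RNA gene inside had a median length of 47453 bp (17 genes, 2068 to 132008), against 29409 bp for those with only unlisted ones (41 genes, 1457 to 281494), and the ranges overlap widely.

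The surroundings of the members were listed broadly. Within 5 kb of members lay 71 different genes of other kinds, of which 55 were listed (77.5%). These were 33 protein-coding, 19 lncRNA and 3 antisense RNA genes. The 16 unlisted ones were 11 protein-coding genes, 1 lncRNA, 1 antisense RNA and 3 pseudogenes, 2 of them 5S pseudogenes. For 34 of the 53 members every gene of another kind within 5 kb was listed, and 7 members had no such gene that near. Counted once per pair, 83 of 104 neighbours of members were listed (79.8%), against 231 of 2489 neighbours of unlisted small RNA genes (9.28%).

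No gene on 4 hand-written lists of protein genes that process these RNAs or act with them was listed. None of 27 genes of microRNA biogenesis and effectors was listed (upper bound of the exact interval 12.8%), the unlisted ones including AGO1, AGO2, Ars2, Cbp20 and Cbp80. None of 20 genes of RNA polymerase III and tRNA processing was listed (upper bound 16.8%, including Bdp1, Brf, La, Maf1 and Mt2), none of 12 snoRNP genes (26.5%, including Fib, Gar1, hoip, NHP2 and Nop10), and none of 31 genes of spliceosomal snRNPs and snRNA maturation (11.2%, including coil, Gem2, Gem3, IntS1 and IntS11). Over the 4 lists together it was 0 of 89 genes, with an upper bound of 4.06%, against the 7.76% of protein-coding genes that were listed. In the order above, 6, 5, 0 and 4 genes of the lists had a listed gene within 5 kb. No share was computed for comparable genes of other functions. The lists were written with earlier results of these data known, so the bounds give no independent support to any pattern.

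Genes known from fly genetics as targets of microRNAs were counted too. Of 33 such targets 22 were in the list (66.7%, interval 48.2 to 82), against 7.76% of all protein-coding genes, and no share was computed for comparable developmental regulators. The microRNA genes that were listed and placed had 4 of these targets, of which 3 were listed. With the unplaced entry ban (6 of 7 targets listed) and the unlisted mir-92b (1 of 1) added, it was 10 of 12. The interval of that share was 51.6 to 97.9. The growth regulator ban is known to repress hid, brat, ena, Mad, numb, mei-P26 and cic, and all but cic were listed. Of the mir-279 targets, nerfin-1, a zinc finger gene of early neurons, was listed and upd1, a JAK/STAT ligand gene, was not. EcR for mir-14, VGlut for mir-1000 and jigr1 for mir-92b were listed. For the other microRNAs 14 of 23 targets were listed (interval 38.5 to 80.3), with hid and ena counted in both groups. Whether the groups differ was not tested. The listed targets of the other microRNAs include ab and chinmo, the temporal identity genes repressed by let-7, although the let-7 gene itself was not among the entries. The targets are a short list of well studied genes, many of them developmental regulators, and were written down with earlier results of these data known, so their share gives no independent support to any pattern.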

How the data were processed

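The authors deposited 1 table of names, with gene name, FlyBase identifier and symbol and no numeric column, so every entry is a deposited name and depth is unknown. Per the labels' protocols, DNA was cut with DpnI, ligated to adaptors, cut with DpnII, amplified and sonicated. Not given in the sources used here are the aligner, peak caller, threshold, genome build and the rule that assigned peaks to genes.

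The table held 1584 entries, of which 72 were transcript entries, left out here. The 1512 gene entries were matched by current symbol (1457) or older symbol (50) to the RefSeq annotation of Release 6 plus ISO1 MT, and 5 stayed unmatched, giving 1504 genes. The annotation release behind the list may be older, and a gene absent from it could not have been listed. Class came from the name and biotype, pseudogenes excepted. Distances run between gene ends, and genes of 1 class within 10 kb formed a locus. Strand was planned as a criterion for microRNA loci but is not in the annotation table used, so loci and overlaps ignore strand. A gene said to lie in or inside another, or to be held by it, overlaps it, and full containment was not checked. Intervals are exact 95% Clopper-Pearson intervals. No test was made and no groups were compared. The matching, distance and locus steps were checked on a small made-up set of genes with known answers. Every member is named, with unlisted genes of its locus, its overlapping or nearest listed gene, and up to 5 unlisted genes per list in alphabetical order. The members and lists were chosen with earlier results of these data known. Sequences were not analysed here. Tables were computed with pandas 2.3.3, intervals with scipy 1.17.1 and figures with matplotlib 3.10.9, under Python 3.11.15.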

Additional observations from a re-analysis of the deposited data

How the results depend on the processing

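Over 10 results, 61 alternatives were computed. In 50 the value stayed within the exact interval of the value given above, or within 1.5 times it for a number of loci, and in 11 it did not. Some of the 50 could not move, since leaving out unmatched entries cannot change a share of placed genes. A wide interval, such as that of snRNA genes, also takes in large changes. Without arm 3R the microRNA share was 3.96%, and without arm 2R the snoRNA share was 0.621%. With 1 locus per run of genes the 5S rRNA share was 100%, since the array is 1 locus. The share over all 5 classes was then 7.87%, which is not a like measure to the 7.76% of protein-coding genes, counted gene by gene. The snRNA share, of 32 genes, was 31.2% without arm 2L, 9.09% without 3R and 10% without X, each inside its interval. The share of members near another listed gene was 52.8% for overlap only, 58.5% at 1 kb, 96.2% at 20 kb and 67.9% with protein-coding neighbours only. The share for unlisted small RNA genes was 9.79% for overlap only, 12.5% at 1 kb and 41.2% at 20 kb, below that of members at each distance. Loci numbered 14 for microRNA genes at 1, 10 and 50 kb, and 15, 14 and 13 for tRNA genes. After the data were seen, 3 alternatives were added: counting ban as mir-ban (microRNA share 7.31%), 1 member per locus (88.6% near another listed gene) and unlisted small RNA genes without 5S rRNA genes (24.3%). The count of GATC sites and of a Prospero motif in promoter windows, its alternative window, and the grouping of microRNAs by seed were not run. A list of names holds no replicate, depth or peak position. No paired analysis was possible because the result comes from no test.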

Other observations

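Outside the 5 name classes, 1 related gene was listed, scaRNA:PsiU6-40, of 17 genes named as small Cajal body RNAs, which guide modification of snRNAs. The let-7 locus lay far from listed genes. mir-let7, mir-100 and mir-125, which are processed from 1 transcript and time late larval and adult development, were 78592, 77992 and 78873 bp from their nearest listed gene, Fas3, and their host transcript lncRNA:let7C was 62275 bp from it. At bantam, the listed gene lncRNA:CR43334 overlaps mir-ban.

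Listed lncRNA genes overlapped other microRNA genes that are not in the list. These were mir-184 in lncRNA:CR44206, mir-275 in lncRNA:CR43857, mir-315 in lncRNA:CR45388, and mir-276a and mir-276b in lncRNA:CR46006 and lncRNA:CR46004. Among listed lncRNA genes that overlap small RNA genes, 6 held a listed one and 6 held none. Among listed protein-coding genes that do so, 17 held a listed one and 41 held none. Unlisted genes that overlap small RNA genes were not counted here. The lncRNA genes with none include lncRNA:CR43334, and whether the unplaced entry ban stands for its mir-ban was not settled.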
